A study of Mus musculus with 4 samples.

Results

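The genes described here are 9 that respond when skeletal muscle loses its nerve or wastes: Trim63, Fbxo32, Gadd45a, Runx1, Hdac4, Hdac9, Ncam1, Ankrd1 and Dach2. They were chosen by name, as every probe set to which the array's platform annotation gives 1 of these symbols, which gave 27 of 45101 probe sets for 9 of 18193 genes with a probe set of their own. The tissue was the left hemi-diaphragm of the mouse, a sheet of breathing muscle, and total RNA was measured on 2 arrays of its synaptic region and 2 of its non-synaptic region. Strain, age, sex, the number of animals and the way the regions were cut are not stated in the labels. None of the 4 arrays is labelled as denervated or wasting muscle, so the comparison is between places along innervated fibres. The labels do not tell whether both arrays of a region hold RNA of different animals, and the p-values may therefore reflect technical spread alone.

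A nerve-free muscle fibre switches on a known set of genes. As background, the class II histone deacetylase HDAC4 accumulates after denervation and represses Dach2, a repressor of the myogenic factor Myog, while a short form of HDAC9, which represses MEF2 targets, becomes scarcer. Myogenin and the FoxO factors then act on Trim63 and Fbxo32, the muscle ubiquitin ligases MuRF1 and atrogin-1, whose products mark muscle proteins for the proteasome. Several genes of this program that innervated fibres restrict to the nuclei under the synapse, acetylcholine receptor subunits among them, spread along the whole fibre when the nerve is lost. The comparison asks where along an innervated fibre these transcripts lie.

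RefSeq promoter windows of assembly GRCm38.p6, 300 bases each, were found for 7 of the 9 genes and gave 10 windows in all. They were searched on both strands for the E-box CANNTG, bound by myogenin and other factors, for a FoxO site GTAAACA, for the Runx site TGTGGT and for the N-box CCGGAA, a motif of synaptic genes bound by ETS factors. The windows of 3 genes are shown as examples, each with a match to a factor named in this program or in synaptic transcription. Other windows that also hold such matches are not printed. Capitals mark the FoxO site in Trim63 (chr4:134314870-134315169, plus strand), the N-box in Gadd45a (chr6:67037358-67037657, minus strand) and the pair of Runx sites in the first window of Runx1 (chr16:92826025-92826324, minus strand), all 5′ to 3′ along the gene.
Trim63: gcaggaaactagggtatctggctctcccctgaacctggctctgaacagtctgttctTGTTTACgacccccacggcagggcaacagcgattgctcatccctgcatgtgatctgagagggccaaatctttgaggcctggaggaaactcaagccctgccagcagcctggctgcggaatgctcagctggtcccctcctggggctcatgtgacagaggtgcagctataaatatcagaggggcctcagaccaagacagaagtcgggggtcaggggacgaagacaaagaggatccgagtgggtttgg
Gadd45a: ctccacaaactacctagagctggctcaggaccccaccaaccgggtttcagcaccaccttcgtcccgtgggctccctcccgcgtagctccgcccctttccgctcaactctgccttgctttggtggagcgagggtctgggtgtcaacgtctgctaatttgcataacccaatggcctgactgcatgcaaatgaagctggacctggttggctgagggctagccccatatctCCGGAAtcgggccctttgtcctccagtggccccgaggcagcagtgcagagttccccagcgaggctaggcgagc
Runx1: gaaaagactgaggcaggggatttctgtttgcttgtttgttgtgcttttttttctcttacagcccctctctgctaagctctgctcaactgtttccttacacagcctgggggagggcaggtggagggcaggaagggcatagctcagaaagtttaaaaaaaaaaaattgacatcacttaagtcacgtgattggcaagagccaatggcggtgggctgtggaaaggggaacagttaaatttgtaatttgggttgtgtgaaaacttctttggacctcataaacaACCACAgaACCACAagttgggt
The FoxO site lay in 1 of the 10 windows, that of Trim63, and in 3.65% of all 32851 promoter windows. The Trim63 window also held 3 E-boxes in lower case, a motif found in 7 of the 10 windows and in 72.3% of all. The N-box lay in 2 of the 10 windows, Gadd45a and the second window of Runx1, and in 14.9% of all. The Runx site lay in 3 of the 10, of Runx1, Ankrd1 and the second window of Dach2, and in 16.8% of all. The matches in the printed windows did not overlap each other. A match is a string of letters and not a measured site.

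The deposited arrays share a 2% trimmed mean of 2500, a scaling that hides any shift common to most transcripts. Markers of the muscle fibre itself lay close together: the actin Acta1 differed by 0.02 ± 0.15 and the creatine kinase Ckm by 0.01 ± 0.14 on the log2 scale (synaptic minus non-synaptic, ± standard error of the limma fit, n = 2 arrays per region). Mbp, the myelin protein of Schwann cells, was higher in the synaptic region by 3.50 ± 0.17 (limma adjusted p = 0.0326). The fat cell hormone Adipoq was lower there with the same adjusted p. These were the marker genes that passed in 11 lists. The list medians were 0.75 for Schwann cells, -2.57 for fat cells, -0.51 for cardiac muscle, -0.12 for smooth muscle, -0.10 for endothelium, -0.08 for fibroblasts, -0.07 for mesothelium, -0.03 for leukocytes and satellite cells and 0.01 for tendon and muscle fibres.

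None of the 9 genes changed between the regions by the test across all probe sets. Of their 27 probe sets, 18 reached the minimum mean log2 level of 8.87 for testing, with at least 1 for each gene, and 0 of the 18 passed limma at an adjusted p under 0.05, against 0.0113% of all 26480 probe sets tested. At an unadjusted p under 0.05 the count was also 0, against 0.986% of all. The 18 log2 differences ran from -0.60 to 0.55 with a median of 0.05, against a median of -0.01 over all probe sets tested. Their median standard error was 0.28, and the 3 probe sets that passed over the whole table differed by 3.50 or more on the log2 scale. The arrays of the regions did not overlap for 7 of the 18, against 19.9% of all probe sets. For 12 of the 18 the larger gap between arrays of 1 region exceeded the difference between the regions. No such count was made over all probe sets. Over all those tested, the median gap was 0.35 between the synaptic arrays and 0.30 between the non-synaptic arrays. Their median absolute difference between regions was 0.14, so larger gaps within a region were not particular to the 9 genes.

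**Figure D1:**
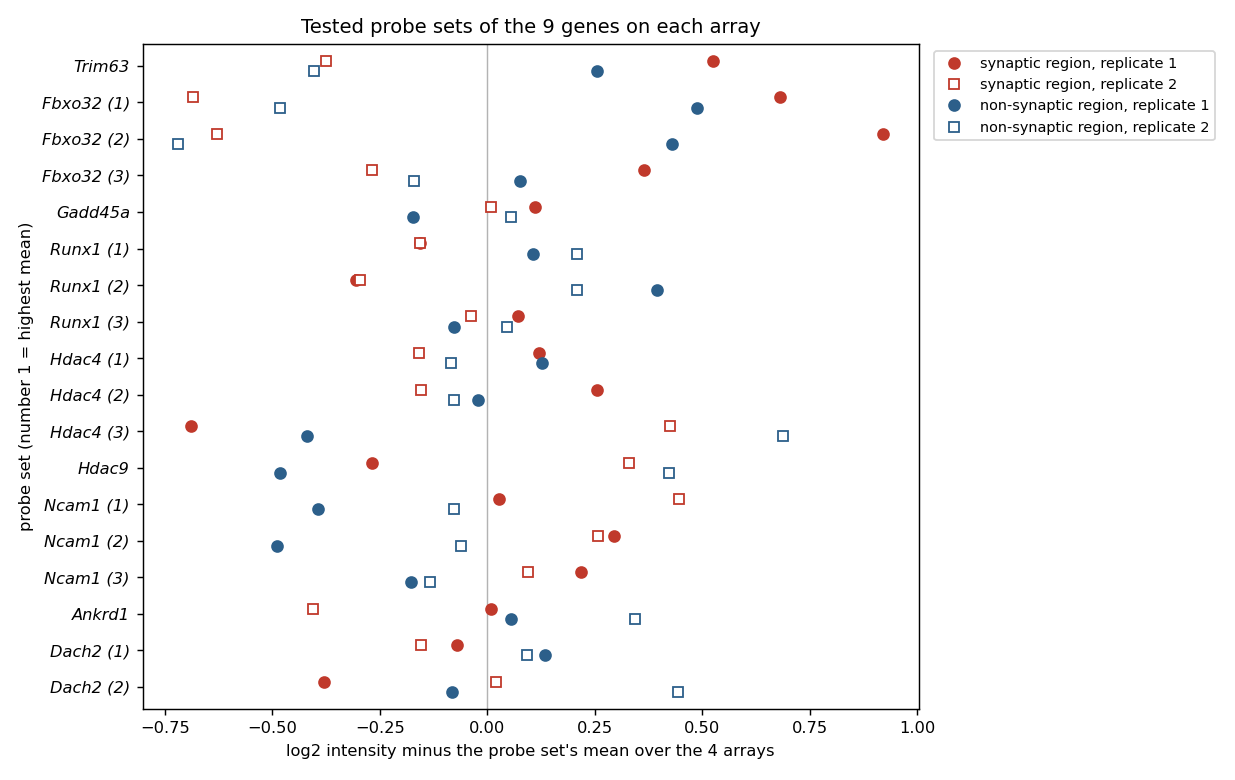
Log2 intensity of the 18 tested probe sets on each of the 4 arrays, as the distance from the probe set's own mean. Red is the synaptic and blue the non-synaptic region, filled circles are replicate number 1 and open squares number 2; Fbxo32 and Trim63 split by number and Ncam1 by region, and the synaptic points of Runx1 (1) coincide.

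The ubiquitin ligases varied more between arrays of a region than between the regions, the order also seen in the medians over all probe sets. Trim63, with 1 probe set, had intensities of 79867 and 42790.1 on the synaptic arrays 1 and 2, and of 66182 and 41970.1 on the non-synaptic arrays 1 and 2. Both arrays with replicate number 1 were high and both with number 2 low, and the regions overlapped. The difference between regions was 0.15 ± 0.37 (95% interval -0.80 to 1.10).

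Fbxo32 behaved alike on all 3 of its probe sets. On the brightest, the synaptic arrays had 104872 and 40699.7 and the non-synaptic arrays 91799 and 46866.5. The difference between the regions was -0.01 ± 0.54 (95% interval -1.38 to 1.36), while the gap between the 2 synaptic arrays was 1.37 and that between the 2 non-synaptic arrays 0.97. The second probe set read 40861 and 13954 in the synaptic region against 29040 and 13101 in the non-synaptic region, a difference of 0.29 ± 0.62. The third read 25967 and 16747 against 21277 and 17930.3, a difference of 0.09 ± 0.26. On each of the 3, both arrays numbered 1 lay above both numbered 2.

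Hdac4, the deacetylase that accumulates after denervation and that is known at the synapse as a protein, had 3 tested probe sets. The brightest read 3917 and 3227 on the synaptic arrays and 3937 and 3398 on the non-synaptic arrays, a difference of -0.04 ± 0.22 (95% interval -0.60 to 0.52). The regions overlapped on all 3, and the others differed by 0.10 ± 0.26 and -0.27 ± 0.55. The third ran the other way by replicate number, with 699 and 842 on the arrays numbered 1 against 1513 and 1815 on those numbered 2.

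Hdac9 encodes the deacetylase whose short form lacks the catalytic domain and represses MEF2 targets. Its tested probe set read 1199 and 1816 in the synaptic region and 1035 and 1937 in the non-synaptic region, so that the number 2 arrays were the high ones in both. The difference was 0.06 ± 0.41 (95% interval -0.98 to 1.10). Its second probe set was too dim to test, at or under the floor on both arrays numbered 1 and at 410 and 441 on those numbered 2. The floor, 158.891, is the intensity to which lower values were raised.

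Dach2, a transcriptional repressor that holds Myog down in innervated fibres, was numerically lower in the synaptic region on both probe sets. The brighter read 3013 and 2845 on the synaptic arrays and 3476 and 3374 on the non-synaptic arrays, and these did not overlap. The difference was -0.23 ± 0.20 (95% interval -0.73 to 0.28). The other read 1482 and 1958 against 1823 and 2624, with the regions overlapping and a difference of -0.36 ± 0.30. When each array was centred on its median, the brighter probe set overlapped and the other did not.

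Gadd45a, a stress-induced regulator that HDAC4 and ATF4 raise in denervated muscle, overlapped between the regions. It read 4229 and 3940.5 in the synaptic region and 3472 and 4066 in the non-synaptic region. The difference was 0.12 ± 0.20 (95% interval -0.40 to 0.64).

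Runx1, a transcription factor that protects denervated fibres from wasting, was numerically lower in the synaptic region on 2 of its 3 tested probe sets. The brightest read 1051 and 1052 on the synaptic arrays and 1261 and 1354 on the non-synaptic arrays, a difference of -0.31 ± 0.24 (95% interval -0.94 to 0.31). The second read 649.999 and 655 against 1056 and 929, a difference of -0.60 ± 0.28 (95% interval -1.32 to 0.12). In both the regions did not overlap, and the synaptic arrays lay close together. The third read 731 and 677 against 659.523 and 719, overlapping, with a difference of 0.03 ± 0.30. Its other 3 probe sets were below the level for testing, with differences from -0.65 to -0.02 and overlapping regions, 1 of them at the floor on 3 arrays.

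Leukocytes also express Runx1, and 8 of 8 markers of macrophages and other leukocytes were on the array. Their summed intensity was 23850.4 and 25625 on the synaptic arrays and 25260.4 and 27020.4 on the non-synaptic arrays, and none was at the floor on all 4. Csf1r, the largest part of each sum, differed by -0.06 ± 0.16 and Ptprc by -0.50 ± 0.44, both with overlap. Of the 6 markers tested, 2 differences were positive and 4 negative. The part of these cells in the Runx1 values was not tested. In pieces of muscle, fewer cells of a type and less RNA per cell cannot be told apart.

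Ncam1, the neural cell adhesion molecule, lies at the synapse of innervated fibres and along the whole surface of denervated ones. It had the highest positive differences of the 9 genes among tested probe sets, though none passed. The brightest probe set read 1832 and 2449.68 on the synaptic arrays and 1369 and 1704 on the non-synaptic arrays, a difference of 0.47 ± 0.27 (95% interval -0.22 to 1.16). The second read 1683.5 and 1641 against 979 and 1316, a difference of 0.55 ± 0.27 (95% interval -0.13 to 1.23). The third read 1511 and 1386 against 1147 and 1183, a difference of 0.31 ± 0.24 (95% interval -0.30 to 0.92). On all 3 the regions did not overlap, with the synaptic arrays the higher ones, as was also the case with quantile normalization and with median centring.

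The 4 dimmer Ncam1 probe sets, below the level for testing, did not all point the same way. The most different of them read 267 and 283 in the synaptic region against 415 and 557 in the non-synaptic region, a log2 difference of -0.81 without overlap. Another read 438 and 297 against 280.062 and 254, a difference of 0.44, without overlap as deposited but with overlap under quantile normalization and median centring. The remaining ones had positive differences of 0.34 and 0.47 and overlapped between regions. The latter read 46.1 and 305 in the synaptic region against 128 and 57.5, with 3 of its 4 arrays raised to the same floor. It had no overlap after median centring, but there the order of those 3 arrays reflects their array medians alone.

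Ncam1 is also made by Schwann cells that do not form myelin and by satellite cells. Of 16 Schwann cell markers 13 were on the array, with none at the floor on all arrays, and their summed intensity was 112922 and 123318 on the synaptic arrays against 36116 and 37156.5 on the non-synaptic arrays. The 6 satellite cell markers summed to 15223 and 15206.5 against 15785 and 14447, which overlap. The Schwann cell sum was mostly that of the myelin genes Mbp and Pmp22. Of markers of cells that do not form myelin, Gfap differed by 0.07 ± 0.36 with overlap and Ngfr by 0.51 ± 0.29 without. The part of either cell type in the Ncam1 values was not tested.

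Ankrd1, an ankyrin repeat protein of the titin complex that responds to stretch and denervation, gave a weak signal. Its tested probe set read 479 and 359 on the synaptic arrays and 494 and 605 on the non-synaptic arrays, a difference of -0.40 ± 0.38 (95% interval -1.36 to 0.57). The regions did not overlap as deposited, but overlapped with quantile normalization and with median centring. The second probe set, below the level for testing, read 29.0 and 460.301 against 216 and 411. Ankrd1 is abundant in heart muscle, and the 5 cardiac markers summed to 5850.43 and 3972 against 7878 and 2022, overlapping between regions. The 3 tested markers did not share a direction, and each overlapped. Tnnt2 differed by 1.05 ± 0.54, Tnni3 by -0.51 ± 0.43 and Myh6 by -1.13 ± 0.96. Myh6 read 700 and 382 on the synaptic arrays against 2994 and 430 on the non-synaptic arrays. The part of heart muscle in the Ankrd1 values was not tested.

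**Figure D2:**
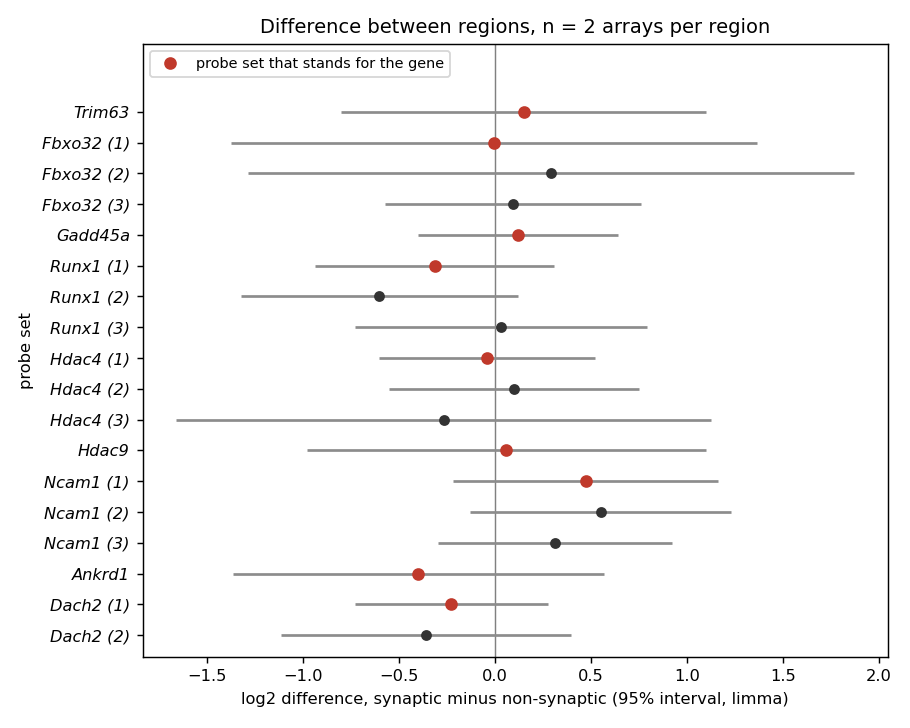
Log2 difference between the regions with its 95% interval from limma for the 18 tested probe sets, the red ones standing for their gene. Every interval includes 0; the Ncam1 probe sets lie farthest to the right, from 0.31 to 0.55, and the second Runx1 probe set farthest to the left at -0.60.

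Read as 1 probe set a gene, the 9 genes had 1 without overlap and higher in the synaptic region, Ncam1, and 3 without overlap and lower, Runx1, Ankrd1 and Dach2. Over all 12363 genes tested, 10.6% were apart and higher and 9.85% apart and lower. Hdac4 at -0.04 stood beside its known target Dach2 at -0.23, and Dach2 beside Myog at -0.12 ± 0.27. Intervals of this width hold both no difference and sizeable ones, so the values do not show that the regions are alike. The fit behind them leaves out the replicate number, so they also include the spread between arrays of different number.

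For 4 genes, Fbxo32, Trim63, Hdac9 and Hdac4, the arrays sorted by replicate number instead of region. The numbers are those that end the array titles, and the labels do not say what arrays with the same number share. Both arrays numbered 1 lay above both numbered 2 for Fbxo32 by 1.17 on the log2 scale, which is 2.25-fold, and for Trim63 by 0.78, or 1.72-fold. For Hdac9 they lay below by -0.75. Over all genes tested 32.7% were above and 28.2% below in this way. A difference at least as large as that of Fbxo32 was seen for 194 of the 12363 genes, for Trim63 837 and for Hdac9 927. Gadd45a at -0.06, Runx1 at -0.05, Ankrd1 and Dach2, both at 0.06, overlapped between the numbers, as did Ncam1 at -0.37. Hdac4 stood apart by 0.25 on its brightest probe set, with the opposite order on the dimmest. No test of the numbers was made.

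**Figure D3:**
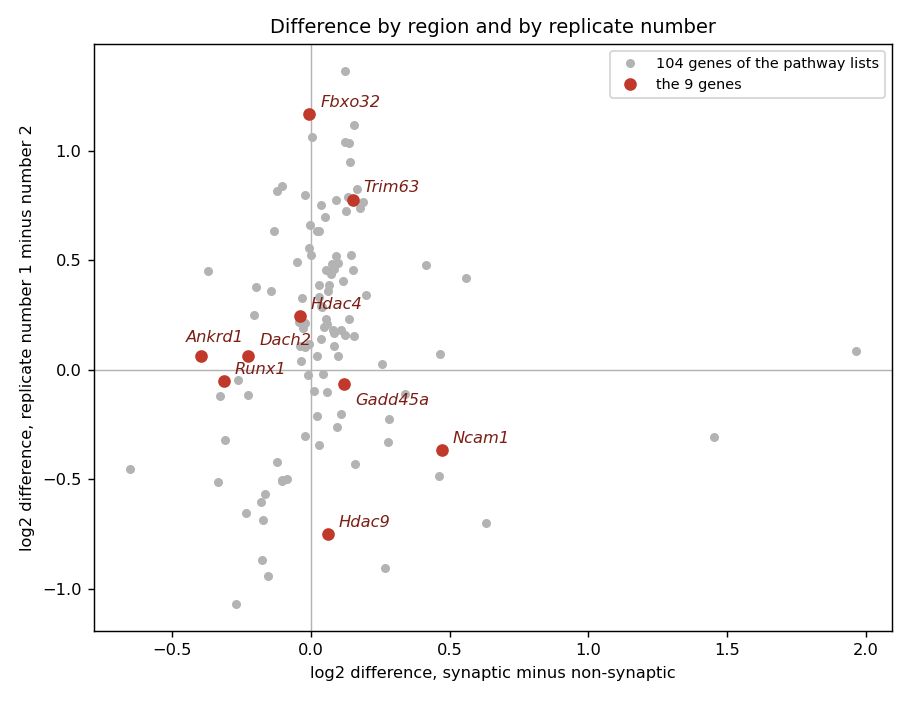
Log2 difference between regions (x axis) against that between replicate numbers 1 and 2 (y axis), 1 probe set a gene. The 9 genes are in red and 104 tested genes of the related lists in grey. Fbxo32 and Trim63 lie high near 0 on the x axis, Hdac9 low, and Ncam1 to the right at 0.47.

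The other genes of the program were read from 9 lists of 122 genes. Of these, 104 reached the level for testing and are called measured here. Some of the rest were on the array but too dim to test. By limma, 0 of the 104 passed over all probe sets, against 0.0162% of genes, while 2 were higher and 0 lower at an unadjusted p under 0.05, against 0.825% and 0.372% of all genes tested. The regions did not overlap for 8.65%, against 20.5% of all, and the median difference was 0.04, against 0.005 over all genes.

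Of the denervation-induced genes, 11 of 15 were measured and both genes with an unadjusted p under 0.05 were among them. Chrna1, the alpha subunit of the acetylcholine receptor, read 9702 and 8633 on the synaptic arrays against 2345 and 2343 on the non-synaptic arrays. Its difference was 1.97 ± 0.19 (limma adjusted p = 0.198). Myh3, the embryonic myosin, read 1661 and 2077 against 612 and 752, a difference of 1.45 ± 0.28 (limma adjusted p = 0.999909). The regions did not overlap for either gene. They overlapped for the receptor kinase Musk at 0.28 ± 0.32, the myoblast fusion protein Mymx at -0.26 ± 0.41, the cell cycle inhibitor Cdkn1a at 0.12 ± 0.62 and the calcium pump regulator Sln at -0.01 ± 0.15. The receptor subunit Chrnb1 also overlapped, at 0.03 ± 0.23. Another subunit, Chrnd, was too dim to test, at 0.39 with overlap and 3 arrays at or under the floor. The list's median was 0.06.

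Chrng, the receptor subunit of fetal and denervated muscle, was named after its values were seen, since it lay below the level for testing. It read 361 and 346 on the synaptic arrays, while both non-synaptic arrays were under the floor, at 82.2 and 94.4. Against the floor it was at least 2.22-fold higher in the synaptic region. With no filter on low levels its limma adjusted p was 0.149. In that fit both non-synaptic values were set to the same floor, so the spread of that region was 0 by construction.

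In the list of ubiquitin ligases and proteasome subunits, 19 of 23 genes were measured, with a median of -0.04. The differences ran from Rbx1, a cullin ring subunit, at -0.65 ± 0.45 to Trim32, a ligase that acts on thin filament proteins, at 0.28 ± 0.26, and Rbx1 alone had no overlap. The deubiquitinases Usp14 and Usp19 differed by -0.23 ± 0.23 and -0.205 ± 0.21, the ubiquitin-binding Zfand5 by -0.04 ± 0.15 and the proteasome subunit Psmd11 by 0.12 ± 0.24.

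Of FoxO, Akt and catabolic signalling genes 19 of 21 were measured, with a median of 0.07 and none past the test. The metabolic coactivator Ppargc1a differed by -0.34 ± 0.27, the myostatin antagonist Fst by -0.31 ± 0.36, the signal transducers Smad2 and Smad3 by -0.18 ± 0.34 and 0.16 ± 0.18, the translation inhibitor Eif4ebp1 by 0.14 ± 0.48 and the transcription factor Cebpb by 0.03 ± 0.20. The 14 measured of 15 autophagy genes all overlapped between the regions, with a median of 0.08. Among them the initiating kinase Ulk1 differed by 0.15 ± 0.26, Atg4b, a protease of autophagosome formation, by 0.14 ± 0.25, the mitophagy genes Pink1 and Bnip3 by 0.14 ± 0.28 and 0.10 ± 0.26, and the receptor Nbr1 and the membrane protein Map1lc3a by 0.08 ± 0.18 and -0.005 ± 0.33.

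The partners of HDAC4 and HDAC9 did not pass. Of 17 class II deacetylase and MEF2 pathway genes 16 were measured, with a median of 0.007. The deacetylase Hdac6 was numerically higher without overlap, at 0.47 ± 0.30. The orphan receptor Nr4a1 was numerically lower without overlap, at -0.33 ± 0.20. The kinases Camk2a and Camk2d, which send class II deacetylases out of the nucleus, differed by -0.37 ± 0.33 and -0.20 ± 0.27, and the MEF2 factors Mef2c and Mef2d by -0.03 ± 0.17 and 0.13 ± 0.35.

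Genes near Gadd45a, Ankrd1, Ncam1 and Runx1 also did not pass. The 5 measured of 6 polyamine and stress genes had a median of 0.20, with the oxidase Smox at 0.34 ± 0.22 and no overlap. Among the others of that list were Gadd45b at 0.42 ± 0.31 and Gadd45g at -0.13 ± 0.32, the relatives of Gadd45a, and Odc1 and Sat1, which make and break down polyamines, at 0.20 ± 0.24 and 0.08 ± 0.18. Of the titin stress sensors 10 of 11 were measured, with a median of 0.04. The Z-disc protein Csrp3 read 32809 and 23246 in the synaptic region against 21158 and 16636 in the non-synaptic region, a difference of 0.56 ± 0.24. Ankrd2, the skeletal muscle relative of Ankrd1, differed by 0.14 ± 0.45, Tcap by 0.08 ± 0.16, Capn3 by 0.04 ± 0.17, Myot by 0.03 ± 0.15 and Ttn, titin itself, by -0.01 ± 0.14.

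Of 10 neural adhesion partners 8 were measured, with a median of 0.09. St8sia2 and St8sia4, the enzymes that add polysialic acid to NCAM, differed by 0.46 ± 0.38 and 0.16 ± 0.27, and the related adhesion molecules Chl1 and L1cam by 0.63 ± 0.56 and 0.25 ± 0.24. The receptor Fgfr1 differed by -0.02 ± 0.39. Of the Runx family list 2 of 4 were measured: Cbfb, the partner that Runx1 needs to bind DNA, at -0.18 ± 0.42, and Runx1t1 at -0.17 ± 0.36.

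**Figure D4:**
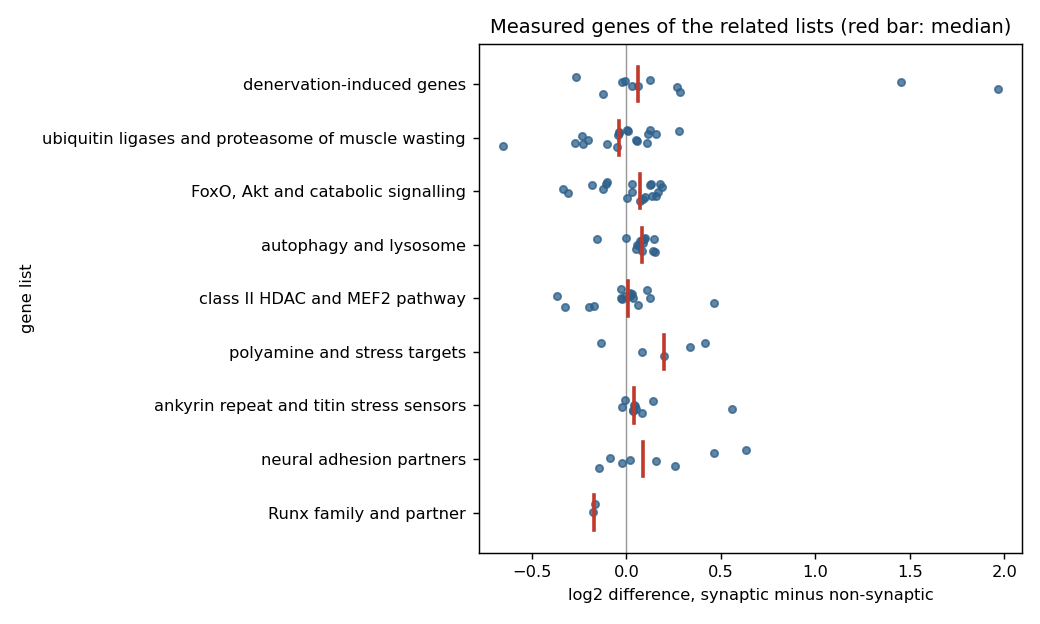
Log2 difference between the regions for each measured gene of the 9 related lists, with the list's median as a red bar; points are spread vertically so that they can be seen. All medians lie between -0.17 and 0.20, and Chrna1 at 1.97 and Myh3 at 1.45 are the points beyond 1.

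The gene nearest in profile to each member was found by the root mean square distance of centred log2 values over the 4 arrays, among 12362 other genes. For Fbxo32 it was Selenbp1, at a distance of 0.011, with 29 genes within 0.1. For Trim63 it was Atp6v0b at 0.0043, for Hdac9 Fbxw7 at 0.015, for Ncam1 Cd46 at 0.021, for Runx1 1700001C19Rik at 0.018, for Ankrd1 Prim2 at 0.044 and for Dach2 Spns3 at 0.011. Acbd5 at 0.0050 was nearest to Hdac4 and H2az1 at 0.0044 to Gadd45a, where 1721 and 1038 genes lay within 0.1. With 4 arrays such nearness describes these arrays alone.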

How the data were processed

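Each array gave 1 deposited intensity per probe set, linear and already scaled; the sources used here do not name the summary method. Values under 158.891, the 20th percentile, were set to that floor before taking log2. Probe sets had to reach a mean log2 level of 8.87, the 40th percentile, and 64 controls were dropped, which left 26480. The 2-sided test was limma 3.58.1 (R 4.3.3; lmFit, eBayes, trend on intensity), p-values being adjusted after Benjamini-Hochberg over those probe sets, with 2 residual degrees of freedom. An exact permutation test cannot give a p below 0.333 here, so none was used. Symbols came from the platform annotation, updated through Entrez identifiers where GRCm38.p6 tables allowed (34754 of 34958 probe sets with 1 gene). A gene is read from its brightest probe set. Named by rule are the 9 genes and, of each related list, up to 4 genes with the smallest p and 2 with the highest mean. Further genes are named outside this rule, such as Myog, Chrng and several of those given by replicate number. Marker lists are given as medians or sums, with some of their genes named. The members and lists were chosen with earlier results of these data known. The fit was tried on simulated data with independent noise on each array. Those data do not hold the order by replicate number seen here, so they do not show how the fit behaves under it. Arrays limit precision by their number.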

Additional observations from a re-analysis of the deposited data

How the results depend on the processing

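No member passed the threshold in any of the 14 alternatives, of which Ankrd1 could be tested in 11. In the alternative that averages all probe sets of a gene, the 9 genes were kept whatever their level, and Ankrd1 would otherwise have been too dim. Of 123 values recomputed for the 9 genes, 113 kept their sign. Gadd45a, Runx1, Ncam1, Ankrd1 and Dach2 kept it throughout, Ncam1 between 0.25 and 0.68. Fbxo32 turned to 0.014 with median centring and to 0.13 as the mean of its probe sets. Without each array in turn it ran from -0.69 to 0.68, Trim63 from -0.30 to 0.60, Hdac4 from -0.18 to 0.10, Hdac9 from -0.39 to 0.51 and Gadd45a from 0.0058 (without non-synaptic replicate 1) to 0.23. Ankrd1 was -0.19 without synaptic replicate 2 and -0.54 without non-synaptic replicate 1, and could not be tested without either other array. The cause was not tested.

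Over all probe sets the counts of 1 higher and 2 lower became 6 higher with median centring, 3 higher with the filter at the 60th percentile, and 0 higher and 0 lower with no filter, the floor at the 40th percentile or no intensity trend. Without each array in turn the higher count was between 0 and 6 and the lower between 0 and 5, both 0 without either non-synaptic array. With the replicate number as a block there were 56 higher and 18 lower, 1 gene of the related lists passed (Chrna1, limma adjusted p = 7.42e-05), and no member did, the smallest being Ncam1 (adjusted p = 0.725, with 3 of 18 member probe sets, 2 of Ncam1 and 1 of Fbxo32, at an unadjusted p under 0.05, against 6.27% of all probe sets in that fit). With the block the standard error fell from 0.54 to 0.14 for Fbxo32, from 0.37 to 0.13 for Trim63 and from 0.41 to 0.21 for Hdac9. Among the 9 genes it rose for Ankrd1 alone, from 0.38 to 0.42. Deviations of same-numbered arrays correlated at 0.63, but with 2 pairs and no label the numbers are not taken to pair the arrays. With no filter, 2 of the 27 member probe sets had an unadjusted limma p under 0.05, Dach2 at 0.0498 and the dim Ncam1 probe set at 0.0416, both lower and neither past adjustment, against 3.34% of all 45037 probe sets in that fit.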

Other observations

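The order by replicate number that Fbxo32 and Trim63 showed was also seen in genes of their pathway and of several other lists, which were looked at after those values were known. Among FoxO, Akt and catabolic signalling genes, both arrays numbered 1 lay above both numbered 2 for 14 of 19, against 32.7% of all 12363 genes tested, and below for 3, against 28.2%. Their median difference, number 1 minus number 2, was 0.74 on the log2 scale, against 0.03 over all genes. Those above included Ddit4, a brake on growth signalling, at 1.07, the glucocorticoid-responsive factor Klf15 at 1.04 and Eif4ebp1 at 1.04. Foxo3 at 0.84, Foxo1 at 0.78 and Foxo4 at 0.74 were also above. The 3 below were Smad2 at -0.60, Ppargc1a at -0.51 and the glucocorticoid receptor Nr3c1 at -0.51. Ddit4 read 59255 and 26044 on the synaptic arrays 1 and 2, and 54380.2 and 28205 on the non-synaptic arrays 1 and 2.

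The autophagy list had 10 of 14 genes above and 2 below by number, Ulk2 at -0.94 and Atg12 at -0.26, with a median of 0.46. The ubiquitin and proteasome list had 12 of 19 above and 5 below, with a median of 0.16. In the ubiquitin list, Fbxo31, an F-box protein like Fbxo32, stood at 1.12, while Fbxo30, another, stood at -0.65 and the p53 ligase Mdm2 at -1.07. Of the class II deacetylase and MEF2 genes 10 of 16 were above and 3 below, of the titin stress sensors 7 of 10 above and 0 below, and of the polyamine and stress genes 4 of 5 above and 0 below. The 11 denervation-induced genes had 2 above and 3 below, with a median of -0.05, from Cdkn1a at 1.37 to Rrad at -0.91. The 8 neural adhesion partners had 2 above and 4 below, with a median of -0.32, and both tested genes of the Runx list lay below, with a median of -0.72. Among marker lists, all 3 measured cardiac genes lay above, with a median of 1.10, and 3 of 4 mesothelial genes, with a median of 0.41, while 4 of 6 fibroblast genes lay below, with a median of -0.30. Muscle fibre markers had a median of 0.05 and Schwann cell markers one of -0.06. The order was thus not particular to the pathway of the ligases. No test of the numbers was made, and the labels do not say whether they stand for animals, days or anything else.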
